A study of Mus musculus with 22 samples.

Results

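The kidneys described here came from the 5 vehicle-treated mice of a study that profiled 22 kidneys by RNA-Seq, and they were chosen by that treatment label alone. The other libraries came from 6 mice given KW6002 (istradefylline, an adenosine receptor antagonist), 5 given cisplatin, a platinum drug that injures the proximal tubule, and 6 given cisplatin and KW6002 together. All animals were male C57Bl6/J mice aged 8 to 10 weeks, and each mouse gave 1 library. The vehicle was the carrier in which KW6002 was dissolved, a mixture of 15% DMSO, 15% cremophor and 70% saline, so the kidneys are those of injected and not of untouched mice. KW6002 was given at 3 mg/kg per day from day -5 to day 7 and cisplatin at 3 mg/kg in 6 daily injections, and kidneys were taken 72 hours after the last cisplatin injection. Values were reads counted per gene, given below as counts per 1000000 (CPM) when a gene is followed across kidneys, and as transcripts per 1000000 (TPM), which also divides by exon length, when genes are compared with each other.

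The kidney filters plasma at the glomerulus, and the filtrate then passes along the nephron. The proximal tubule reclaims most of the filtered glucose, amino acids, phosphate and bicarbonate and secretes organic anions and cations, work that is driven by the sodium pump and fuelled by mitochondria. The thick ascending limb and distal convoluted tubule take up salt without water, and the connecting tubule and collecting duct set the final salt, acid and water content of the urine. Each segment has carriers and channels of its own, so that their transcripts serve as markers of the segment in RNA from a whole kidney. Because whole kidney RNA was measured, fewer cells of a type and less RNA per cell cannot be told apart in any value below.

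The 5 vehicle libraries held 26471762 to 33168134 counts, with a median of 31739661. Of 32858 genes listed, 27677 had a count in at least 1 vehicle library and 19007 in all 5, and 12505 had at most 3 counts in each of them. Between any pair of the 5 libraries the lowest Pearson correlation of log2(CPM + 1) across genes was 0.981, over 10 pairs. Protein-coding genes held 98.9% of the counts, long noncoding genes 0.906% and pseudogenes 0.0892%. A mean of at least 1 CPM was reached by 13923 genes, of at least 100 CPM by 1889, and of at least 1000 CPM by 77. Of 6 tubular injury genes Havcr1 and Lcn2 were low, while Spp1, osteopontin, was at 733 ± 48.4 CPM and Clu, clusterin, at 201 ± 24.8 CPM (SD, n = 5). Havcr1, which encodes the injury marker KIM1, was at 2.82, 1.55, 1.98, 1.95 and 1.51 CPM in kidneys 1 to 5, against 635 ± 115 CPM (SD, n = 5) in cisplatin-treated kidneys, and Lcn2, which encodes NGAL, was at 3.06, 3.44, 4.60, 3.36 and 3.80 CPM against 1349.8 ± 436 CPM (SD, n = 5). The mice carry label numbers in the 300s for kidneys 1 to 3 and in the 500s for kidneys 4 and 5, and the labels do not say what these number series mean.

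Counts in the vehicle kidney were concentrated on a small part of the genes. The 10 genes with most counts held 14.9% ± 0.187 (SD, n = 5) of all counts, the first 100 genes held 29.6% ± 0.293 (SD, n = 5), and 50% of the counts was reached with 609 ± 12.2 genes, between 590 and 621 per kidney. Among nuclear genes alone the first 100 held 20.8%, and in TPM the first 100 of all genes held 48.2%. Of these 100 genes, 95 were also among the 100 with the most counts in KW6002-treated kidneys, 70 in co-treated kidneys and 49 in cisplatin-treated kidneys.

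Mitochondrial messages and proximal tubule genes led the list. By counts mt-Cytb, cytochrome b of respiratory complex III, came first in all 5 kidneys, at 27456, 27512, 26990, 28420.4 and 27512 CPM in kidneys 1 to 5 (mean 27578 ± 519, SD, n = 5). Gpx3 (ENSMUSG00000018339, chromosome 11 from 54902453 to 54910377), the secreted glutathione peroxidase that the proximal tubule releases into plasma, followed at 26600.4, 25195, 21755, 23561 and 23498 CPM. Kidney 1 held the most Gpx3 and kidney 3 the least, and its range did not touch that of mt-Cytb. Kap (ENSMUSG00000032758, chromosome 6 from 133849851 to 133853762), the kidney androgen-regulated protein of the proximal tubule, was at 17179, 17828, 19195, 21073 and 17872 CPM, highest in kidney 4 and lowest in kidney 1. The phosphate cotransporter gene Slc34a1 (ENSMUSG00000021490, chromosome 13 from 55398187 to 55415592) was at 7952, 7116, 6898, 6979 and 6544 CPM, the highest level of any carrier gene, with kidney 1 above and kidney 5 below the others. Acsm2, an acyl-CoA synthetase for medium-chain acids, had a mean of 5159 ± 214 CPM (SD, n = 5).

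Per length of transcript the order was different. Kap was first in all 5 kidneys, at 69765, 72616, 78894, 86012 and 73497 TPM, with an exon length of 707 bases, and its range overlapped that of mt-Cytb, at 68907, 69254, 68558, 71689 and 69921 TPM, although Kap was above mt-Cytb in each kidney. Below them lay mt-Nd1, a subunit of complex I, at 44082 ± 1721 TPM (SD, n = 5) and Gpx3 at 38439.6 ± 2752 TPM (SD, n = 5). The ranges of these neighbours overlapped, and mt-Nd1 was above Gpx3 in 4 of 5 kidneys. Steps without overlap between neighbours in TPM came, among others, between mt-Cytb and mt-Nd1 and between mt-Nd2 and mt-Nd5. From Umod down to the gene ranked 25, the ranges of all neighbours overlapped. Umod, which encodes the urinary protein uromodulin of the thick ascending limb (4436 ± 706 TPM), was above Slc34a1 (4386 ± 302 TPM) in 3 of 5 kidneys.

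**Figure D1:**
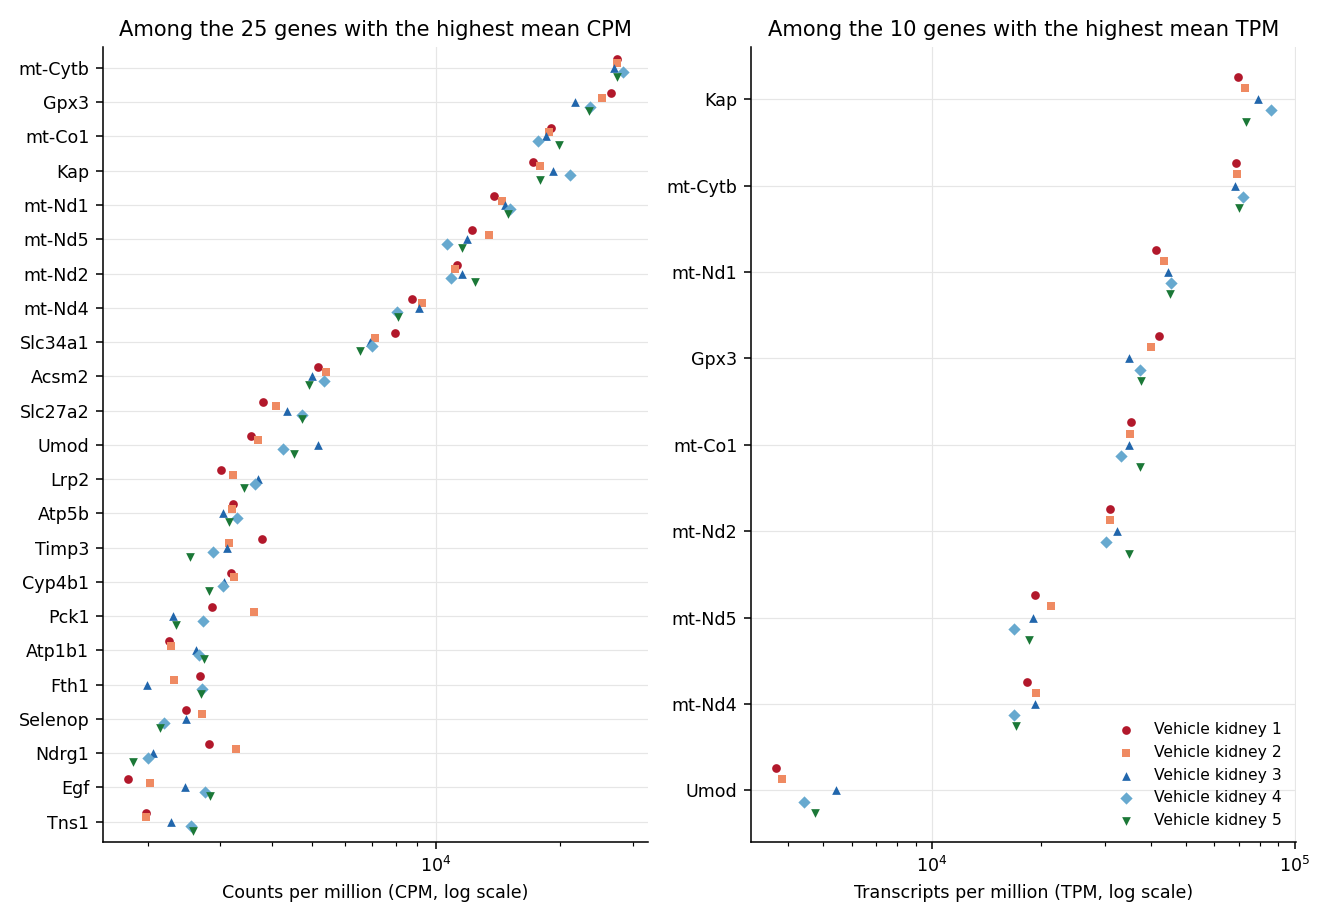
Left, CPM on a log axis of genes among the 25 with the highest mean CPM, and right, TPM on a log axis of genes among the 10 with the highest mean TPM, with 1 point per vehicle kidney and gene. The 5 points of mt-Cytb lie between 26990 and 28420 CPM, and Kap leads by TPM with points from 69765 to 86012.

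The promoter sequences of a pair of these proximal tubule genes are shown because their transcripts are among the most abundant nuclear messages and each holds a TATA box a short way before the start. They are the 250 bases before the RefSeq transcription start (build GRCm38.p6), 5′ to 3′, with the match to TATAAA, a motif chosen after the values were seen, in capitals. The match starts 31 bases before the start in Kap (chr6:133853668-133853917, minus strand) and 28 bases before it in Acsm2 (chr7:119554090-119554339, plus strand).
Kap: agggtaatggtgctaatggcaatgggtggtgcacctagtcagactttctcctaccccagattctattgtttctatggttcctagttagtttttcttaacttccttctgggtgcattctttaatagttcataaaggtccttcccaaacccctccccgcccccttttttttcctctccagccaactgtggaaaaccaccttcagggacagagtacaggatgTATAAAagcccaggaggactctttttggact
Acsm2: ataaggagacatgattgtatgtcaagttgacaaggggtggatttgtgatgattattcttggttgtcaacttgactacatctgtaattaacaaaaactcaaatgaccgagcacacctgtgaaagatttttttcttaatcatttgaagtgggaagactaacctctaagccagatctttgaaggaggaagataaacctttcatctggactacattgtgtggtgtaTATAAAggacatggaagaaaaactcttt
TATAAA was searched on the gene's strand in the 300 bases from 250 before to 50 after each start. It was found in 4 of 21 promoters of the 25 most abundant genes (19%), for 16 of which RefSeq had an entry. In the general proximal tubule list it was in 5 of 27 promoters (18.5%), and in the table in 8.32% of the 32851 promoters. These counts take a match anywhere in the 300 bases. Of the 4, the match in Slc34a1 began at base 17 past the start and that in Selenop 10 bases before it. Slc34a1 is also among the 5. The HNF1 motif GTTAATNAT and the HNF4 motif CAAAGTCCA, named for the hepatocyte nuclear factors of the proximal tubule and searched on both strands, were in 0 promoters of the general proximal tubule list, and in 0.801% and 0.475% of all promoters. These letters are strict forms of the motifs, and a match or its absence is a description of the window only.

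Transcripts of the mitochondrial chromosome held 9.32% ± 0.154 (SD, n = 5) of the counts, between 9.10 and 9.47%, and 21.9% of TPM. Nearly all of it lay on 6 messages. These were mt-Cytb, mt-Co1 (18769 ± 774 CPM), mt-Nd1 (14596 ± 517 CPM), mt-Nd5 (11961 ± 1022 CPM), mt-Nd2 (11433 ± 624 CPM) and mt-Nd4 (8635 ± 553 CPM), each a core subunit of the respiratory chain (SD, n = 5). By contrast mt-Co2, mt-Co3, mt-Atp6, mt-Nd3 and mt-Nd4l had at most 2 counts in any vehicle library. Of the stretches of 50 bases that these 5 messages contain, 98.0% to 100% also occur at another annotated locus, and the authors counted only reads with a unique position. The same share was 62.2% for mt-Nd4, 51.1% for mt-Co1, 8.19% for mt-Nd2 and 7.61% for mt-Nd5, and 0 for mt-Nd1, mt-Nd6 and mt-Cytb. How far this lowered the counted mitochondrial share was not tested. mt-Nd6, the message read from the opposite strand to the others, was at 149, 86.2, 132, 214 and 262 CPM, and its excess CV of 41.8% between kidneys was the widest of the mitochondrial messages. Excess CV is the coefficient of variation of normalized CPM between the 5 kidneys after counting noise is taken off.

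The summed share of nuclear respiratory chain genes differed little across the kidneys. The 81 listed subunits held 1.90% ± 0.0319 (SD, n = 5) of the counts, at 1.92, 1.90, 1.86, 1.93 and 1.86% in kidneys 1 to 5. Atp5b, the beta subunit of ATP synthase, led them at 3181 ± 96.8 CPM (SD, n = 5). Over the 76 genes at 5 CPM or more the median excess CV was 5.49%, beside 6.93% over all genes at that level, and 1 of the 76 reached 30%. Kidney 5 was lowest for 40 of the 76 (52.6%), beside 22.9% of all genes at that level. Cytosolic ribosomal protein genes, 94 in number, held 0.415% ± 0.0121 of the counts. For these genes a median of 19.1% of 50-base stretches occur at another locus, and for the respiratory chain genes a median of 0. In the fit against cisplatin-treated kidneys 2068 of 17131 genes (12.1%) were higher in vehicle and 2069 (12.1%) were lower, at an adjusted p below 0.01 and a log2 difference beyond 1. All cisplatin-treated mice carry numbers in the 500s, and with the libraries of the 500s alone 4186 genes were called in place of 4137. By this call 4 of 7 tested mitochondrial messages were higher in vehicle, as were 7 of 78 respiratory chain genes and 3 of 89 ribosomal protein genes, while 0, 1 and 9 were lower.

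Markers of the proximal tubule outweighed those of every other segment. The 28 genes of the general proximal tubule list held 9.36% ± 0.257 (SD, n = 5) of all counts and 15.9% of TPM, at 9.54, 9.52, 9.19, 9.57 and 8.99% in kidneys 1 to 5. Counting error moved this share by at most 0.0112 percentage points to either side (95% Wilson interval). All 28 members were above 1 CPM, the lowest being Slc34a3, a further phosphate cotransporter, at 83.6 ± 12.3 CPM. Beside Gpx3, Kap, Slc34a1 and Acsm2 the list was led by Slc27a2, a fatty acid carrier and acyl-CoA synthetase (4343 ± 408 CPM), Lrp2, the endocytic receptor megalin (3401 ± 291 CPM), Cyp4b1, a cytochrome P450 (3069 ± 166 CPM), and Pck1, the key enzyme of glucose formation (2771 ± 534.7 CPM, all SD, n = 5). Against cisplatin-treated kidneys 20 of the 28 were higher in vehicle, 1 was lower and 7 did not pass. Over all genes tested 12.1% were called in each direction. Gpx3, with a log2 difference of 0.36, was among the 7. Acsm2 (log2 difference 5.91, standard error 0.28, adjusted p = 2.39e-14) and Kap (log2 difference 5.10, standard error 0.36, adjusted p = 1.69e-11) were among the 20. The 1 lower gene was Pck1 (log2 difference -1.05, standard error 0.21, adjusted p = 1.34e-04).

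Markers of the early and late proximal tubule differed in order between kidneys. The 11 genes of the S1 and S2 segments held 0.728, 0.723, 0.621, 0.647 and 0.618% of counts in kidneys 1 to 5, highest in kidneys 1 and 2, and the 12 genes of the S3 segment held 0.540, 0.571, 0.713, 0.705 and 0.722%, lowest in the same 2 kidneys. Counts on the S1 and S2 list per count on the S3 list were 1.35, 1.27, 0.871, 0.918 and 0.856. Of the S1 and S2 genes, Slc5a2, the SGLT2 glucose carrier, was at 863, 729.9, 703, 654 and 625 CPM, most in kidney 1 and least in kidney 5. Of the S3 genes, Slc7a13, an aspartate and glutamate carrier of the brush border, was at 630.2, 669, 915, 893 and 929 CPM, and kidneys 1 and 2 lay below the other 3. Cyp7b1, a steroid and oxysterol hydroxylase, was at 62.2, 59.2, 177, 172 and 135 CPM, again lowest in kidneys 1 and 2, while Acy3, an aminoacylase, was at 1555, 1551, 1694, 1525 and 1632 CPM, with kidneys 1 and 2 inside the range of the others. Against cisplatin-treated kidneys 9 of 11 genes of the S1 and S2 list and 9 of 12 of the S3 list were higher in vehicle. Of both lists 0 were lower, beside 12.1% of all genes in each direction. Slc7a13 had the largest difference of both lists (log2 difference 7.08, standard error 0.33, adjusted p = 1.70e-14).

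The thick ascending limb came next by counts. Its 11 markers held 0.652, 0.707, 1.02, 0.945 and 1.01% of counts in kidneys 1 to 5 (mean 0.867% ± 0.175, SD, n = 5) and 0.637% of TPM, and 10 of them were above 1 CPM. Proximal tubule counts per thick ascending limb count were 14.6, 13.5, 9.0, 10.1 and 8.91, so that kidneys 1 and 2 stood above the other 3. Umod was at 3565, 3690.3, 5174, 4247 and 4517 CPM, highest in kidney 3. Slc12a1, the sodium, potassium and chloride cotransporter NKCC2 that furosemide blocks, was at 715, 919, 1909, 1820.2 and 2083 CPM, with an excess CV of 42.3%. Kidneys 1 and 2 were lowest for each of the 10 markers at 5 CPM or more, 6 times kidney 1 and 4 times kidney 2, whereas over all 11113 genes at that level kidney 1 was lowest for 18.1% and kidney 2 for 21.1%. The same kidneys were low for Egf (1788, 2021, 2463, 2749 and 2833 CPM), the epidermal growth factor precursor, and for Ptger3, a prostaglandin receptor (29.8, 25.9, 75.6, 70.9 and 70.0 CPM), while Cldn16, a claudin of the magnesium and calcium pathway, varied less, with an excess CV of 12.7%. In KW6002-treated kidneys the excess CV of Slc12a1 was 9.47%. Without kidneys 1 and 2, a choice made after seeing these values, the list held 0.992% of the counts. Against cisplatin-treated kidneys 9 of 11 markers were higher in vehicle and 0 were lower, beside 12.1% of all genes in each direction. Egf differed most (log2 difference 5.06, standard error 0.29, adjusted p = 4.50e-13).

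The summed share of distal convoluted tubule markers differed little between the vehicle kidneys. The 5 genes held 0.188, 0.186, 0.175, 0.180 and 0.182% of counts (mean 0.182% ± 0.00481, SD, n = 5), and Slc12a3, the thiazide-sensitive sodium chloride cotransporter, made up most of it at 1519, 1510.1, 1456, 1491 and 1491 CPM. Its excess CV of 1.70% was the lowest but 1 among the 77 genes at 1000 CPM or more, behind catalase, Cat (1.18%). In the KW6002-treated kidneys the excess CV of Slc12a3 was 12.4%. Without Slc12a3 the list held 0.0327% ± 0.00253 (SD, n = 5) of vehicle counts, and the median excess CV of the 5 markers was 7.40%. All 5 markers were higher in vehicle than in cisplatin-treated kidneys, beside 12.1% of all genes. In the cisplatin-treated kidneys the list held 0.0115% ± 0.00273 (SD, n = 5). Pvalb, the calcium-binding protein parvalbumin, differed most (log2 difference 7.62, standard error 0.28, adjusted p = 5.02e-16), from 17.4 ± 1.42 CPM with vehicle to 0.0981 ± 0.0638 CPM with cisplatin (SD, n = 5 each). In TPM the distal convoluted tubule list held 0.0721%, below the connecting tubule list at 0.490%, although their shares of counts were 0.182 and 0.181%. The connecting tubule list was led by Klk1, tissue kallikrein (1147 ± 138 CPM), the calcium-binding proteins Calb1 (344.9 ± 76.1 CPM) and S100g (265 ± 42.4 CPM, all SD, n = 5), and held 0.212, 0.202, 0.160, 0.170 and 0.162% of counts in kidneys 1 to 5, most in kidneys 1 and 2. Of the 50-base stretches of Klk1, 24.0% occur at another locus.

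The collecting duct gave small shares. Its principal cell markers held 0.0487, 0.0454, 0.0778, 0.0628 and 0.0657% of counts in kidneys 1 to 5, highest in kidney 3. Within the list the spread was uneven. Aqp2, the vasopressin-regulated water channel, was at 82.1, 78.6, 238, 173 and 178 CPM (excess CV 45.6%), and Aqp4 and the vasopressin receptor Avpr2 had excess CVs of 46.8% and 29.7%, whereas Aqp3 had 13.2% and the epithelial sodium channel subunits Scnn1b and Scnn1g had 3.63% and 8.76%. Kidney 3 held the most of all 7 aquaporin genes at 5 CPM or more, including Aqp1 of the proximal tubule and thin limb, at 1137, 1032, 1496, 1278 and 1383 CPM. Kidney 3 was highest for 20.9% of all genes at that level. Intercalated cell markers, the acid and base secreting cells of the duct, held 0.0667, 0.0663, 0.0581, 0.0637 and 0.0646% of counts, with Slc4a9 (119.9 ± 20.8 CPM) and Slc26a4, the pendrin anion exchanger (94.6 ± 12.3 CPM, SD, n = 5), in the lead. Against cisplatin-treated kidneys 6 of 12 intercalated cell markers were higher in vehicle and 0 lower, beside 12.1% of all genes in each direction. Of 9 principal cell markers 0 were higher and 2 were lower, Aqp2 (log2 difference -1.41, standard error 0.25, adjusted p = 2.46e-05) and the transcription factor Elf5 (-2.18). The 4 thin limb markers held 0.00497, 0.00712, 0.0153, 0.0126 and 0.0151% of counts, lowest in kidney 1.

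**Figure D2:**
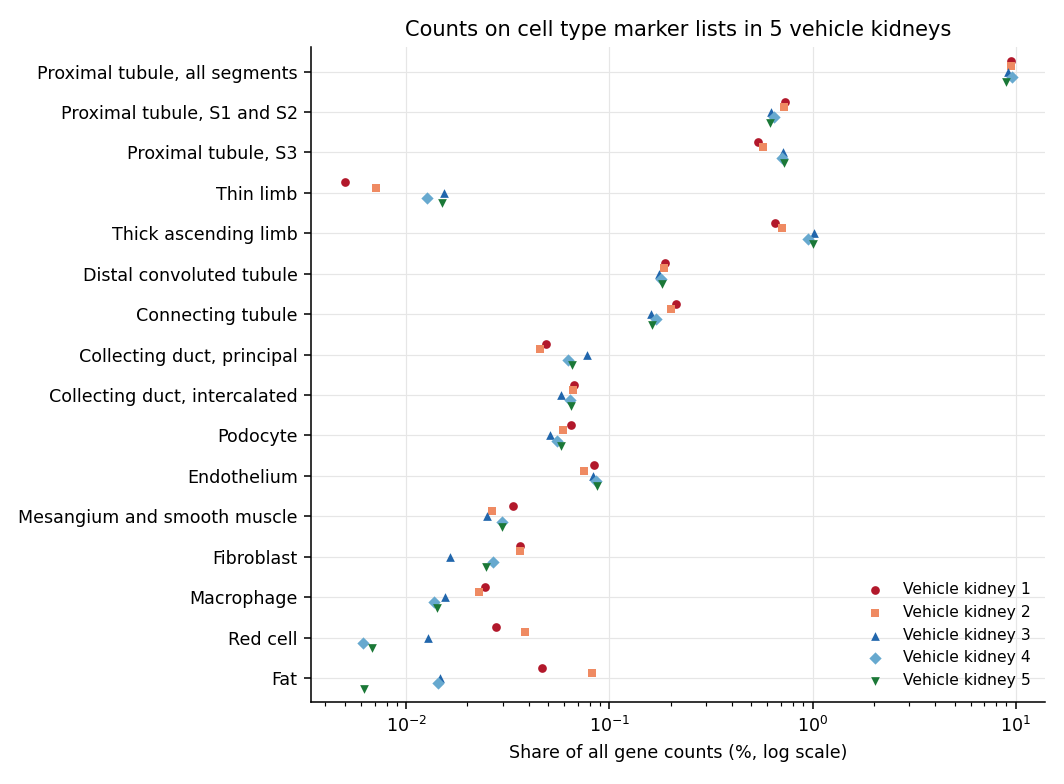
Percent of all gene counts on each marker list, on a log axis, with 1 point per vehicle kidney. The general proximal tubule list lies at 8.99 to 9.57%, and the fat and red cell lists scatter widely, from 0.00617 to 0.0822% and from 0.00610 to 0.0384%.

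Cells outside the tubule gave less than the thick ascending limb did. Podocyte markers held 0.0576% ± 0.00489 of counts (SD, n = 5), led by the surface protein podocalyxin, Podxl, at 301 ± 20.1 CPM. Endothelial markers held 0.0828% ± 0.00475, led by Plvap (129 ± 14.7 CPM), a protein of endothelial pores, and the vascular growth factor receptor Kdr (112 ± 4.12 CPM). Mesangial, pericyte and smooth muscle markers held 0.0288% ± 0.00340, with renin, Ren1, at 109, 81.6, 74.1, 68.0 and 72.7 CPM, and fibroblast markers held 0.0281% ± 0.00844, with the matrix proteoglycan Dcn at 86.8 ± 30.2 CPM. Macrophage markers held 0.0181% ± 0.00507. Within that list Csf1r, the growth factor receptor of macrophages, was steady at 71.2, 76.0, 80.8, 79.3 and 76.7 CPM, while the complement gene C1qb was at 54.2, 47.9, 21.9, 16.3 and 16.6 CPM and was highest in kidneys 1 and 2. T cell, B cell and neutrophil markers held 4.91e-04%, 0.00245% and 5.73e-04%, and the neutrophil granule genes Mpo, Ly6g and Camp had at most 3 counts in every vehicle library. Against cisplatin-treated kidneys 1 of 9 podocyte markers, Magi2, was higher in vehicle and 0 were lower, 0 of 11 endothelial markers were higher and 1 was lower, 0 of 6 fibroblast markers were higher and 4 were lower, and 1 of 6 macrophage markers, Csf1r (1.23), was higher and 0 were lower, beside 12.1% of all genes in each direction.

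Neighbouring tissues were checked by their defining genes. The adrenal steroid enzymes Cyp11a1, Cyp11b1, Cyp11b2 and Cyp21a1 and the adrenal medulla genes Th, Dbh and Pnmt had at most 3 counts in every vehicle library, a level of up to 0.113 CPM, as did Ckm of skeletal muscle and Ctrb1 of the pancreas. Other members of these lists had more. Of the adrenal cortex list Star, a cholesterol carrier of steroid-making cells, was at 1.20, 1.44, 1.39, 1.76 and 1.18 CPM and Mc2r, the corticotropin receptor, at 0.613, 0.680, 0.0945, 0.0326 and 0 CPM, highest in kidneys 1 and 2. Of the 5 skeletal muscle genes Mylpf, a myosin light chain, was at 0.981, 1.02, 0.819, 1.43 and 1.42 CPM, and Acta1, Tnnt3 and Tnni2 had up to 22, 9 and 8 counts. The lists held 1.86e-04% and 1.64e-04% of counts. Urothelial markers held 0.00130% ± 9.12e-04 of counts, most in kidney 2, where Upk1b, a uroplakin, was at 6.80 CPM against 0.613 in kidney 1. Fat markers were present and uneven. The list held 0.0465, 0.0822, 0.0146, 0.0143 and 0.00617% of counts in kidneys 1 to 5, and Ucp1, the uncoupling protein of brown fat, had a mean of 36.3 ± 21.8 CPM (SD, n = 5). Red cell markers held 0.0275, 0.0384, 0.0128, 0.00610 and 0.00676%, with the globin gene Hbb-bs at 167, 227, 75.7, 37.6 and 38.5 CPM, of whose 50-base stretches 53.2% occur at another locus. Kidney 2 was highest and kidney 1 next for both lists. Their part in the differences between kidneys was not tested.

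The vehicle kidney expressed most of the solute carrier (SLC) genes. Of 373 genes with an SLC symbol, 4 have a symbol ending in os or ps, as opposite-strand transcripts or pseudogenes do. Of the 373, 293 had a mean of at least 1 CPM, 89 of at least 100 CPM and 7 of at least 1000 CPM. At most 3 counts in every library were found for 30. Together the 373 held 4.99% ± 0.0547 (SD, n = 5) of the counts, at 4.97, 4.91, 5.05, 5.04 and 4.98% in kidneys 1 to 5. The coefficient of variation of this sum was 1.10%, but a sum over many genes can hide shifts in opposite directions. Gene by gene, the median excess CV of the 255 SLC genes at 5 CPM or more was 9.01%, beside 6.93% over all genes at that level. Without kidneys 1 and 2, 291 SLC genes reached 1 CPM. The 10 with the highest TPM held 45.3% of all SLC TPM. By family and in summed TPM, the organic ion carriers of Slc22 came first (6716 TPM over 23 genes), followed by the phosphate carriers of Slc34 (4491 over 3 genes), the mitochondrial carriers of Slc25 (4060 over 46 genes) and the fatty acid carriers of Slc27 (3441 over 6 genes).

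Phosphate, urate, fatty acid and amino acid carriers were at the top. Slc34a1 was at 4883, 4382, 4287, 4307 and 4069 TPM in kidneys 1 to 5 and Slc27a2 at 2908, 3134, 3372, 3644 and 3662 TPM, and the order of the 2 held in every kidney. Slc22a12, the urate exchanger URAT1, was at 2371, 2414, 2254, 2436 and 2516 TPM. Slc7a13 followed at 845, 900.1, 1242, 1204 and 1262 TPM and Slc3a1, the heavy chain of cystine and basic amino acid transport, at 905, 893, 1098, 1118 and 1018 TPM, both lowest in kidneys 1 and 2. Slc22a18 (868 ± 29.1 TPM), an orphan member of its family, Slc22a6, the organic anion carrier OAT1 (832 ± 28.8 TPM), Slc17a1, a phosphate and urate carrier (750.1 ± 31.7 TPM), Slc12a1 (748 ± 317 TPM) and Slc5a2 (713 ± 89.0 TPM, all SD, n = 5) completed the 10. The range of each of these last 5 overlapped that of the next in order.

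The listed carriers of glucose and of amino acids were all detected, on lists chosen with earlier results of these data known. All 12 sugar carriers and all 21 amino acid carriers listed had a mean above 1 CPM. Whole families, which include unlisted genes, were not detected in full. A mean of 1 CPM was reached by 9 of 12 Slc2, 9 of 12 Slc5, 12 of 21 Slc6 and 12 of 16 Slc7 genes. Slc5a2 was 713 TPM on average against 53.4 for Slc5a1, the high-affinity carrier SGLT1, and the basolateral exit carrier Slc2a2 was at 142 ± 14.8 TPM (SD, n = 5). Slc5a10, a mannose and fructose carrier, was at 189.9 ± 15.7 TPM. After Slc7a13 and Slc3a1 the amino acid carriers were led by Slc6a18 (444 ± 72.1 TPM) and Slc6a19 (386 ± 78.3 TPM), apical carriers of neutral amino acids. Slc7a9, the light chain that pairs with the Slc3a1 protein, was at 229 ± 34.9 TPM, below Slc3a1. Slc13a3, a dicarboxylate carrier, Slc5a12 and Slc5a8, lactate carriers, were at 461 ± 36.5, 315 ± 31.9 and 192 ± 41.8 TPM (SD, n = 5).

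Slc22a2 of the basolateral and Slc47a1 of the apical membrane, both drug carriers, were steady between kidneys. This did not hold for every drug carrier. At 5 CPM or more, 2 of 15 organic anion and urate carriers and 2 of 33 ATP-binding cassette genes had an excess CV of at least 30%. Of 9 organic cation and carnitine carriers 0 did. Over all 11113 genes at that level 399 (3.59%) did, so such small counts do not set these lists apart from other genes. Slc22a2, the organic cation carrier OCT2, was at 362, 369.8, 393, 414 and 391 TPM, and Slc47a1, the apical exporter MATE1, was at 604, 615, 621, 628 and 635 TPM with an excess CV of 2.29%. OCT2 and MATE1 are known to carry cisplatin. Both genes were higher in vehicle than in cisplatin-treated kidneys, with log2 differences of 1.65 and 1.88. Slc31a1, the copper carrier CTR1, was at 169 ± 4.93 TPM. Of 49 ATP-binding cassette (ABC) transporter genes, 37 were above 1 CPM, led by the peroxisomal Abcd3 (225 ± 14.7 TPM), Abca3, a lipid transporter (214 ± 6.55 TPM), Abcc2, the apical exporter MRP2 (202 ± 13.2 TPM), and the urate exporter Abcg2 (163 ± 6.55 TPM, all SD, n = 5).

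The sodium pump and the channels were abundant as well. The pump's beta subunit Atp1b1 was at 2102, 2122, 2473, 2490.0 and 2581 TPM in kidneys 1 to 5 and its regulator Fxyd2 at 1309.7 ± 90.4 TPM (SD, n = 5). Of the channels, Kcnj15 (758 ± 20.6 TPM) and Kcnj16 (608 ± 19.3 TPM), inward rectifier potassium channels, stood above Kcnj1, the apical potassium channel ROMK (184 ± 28.7 TPM, all SD, n = 5). Aqp1 led the aquaporins at 1242, 1131, 1655, 1404 and 1531 TPM, and Aqp5 and Aqp9 were at 0.220 and 0.0868 TPM.

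**Figure D3:**
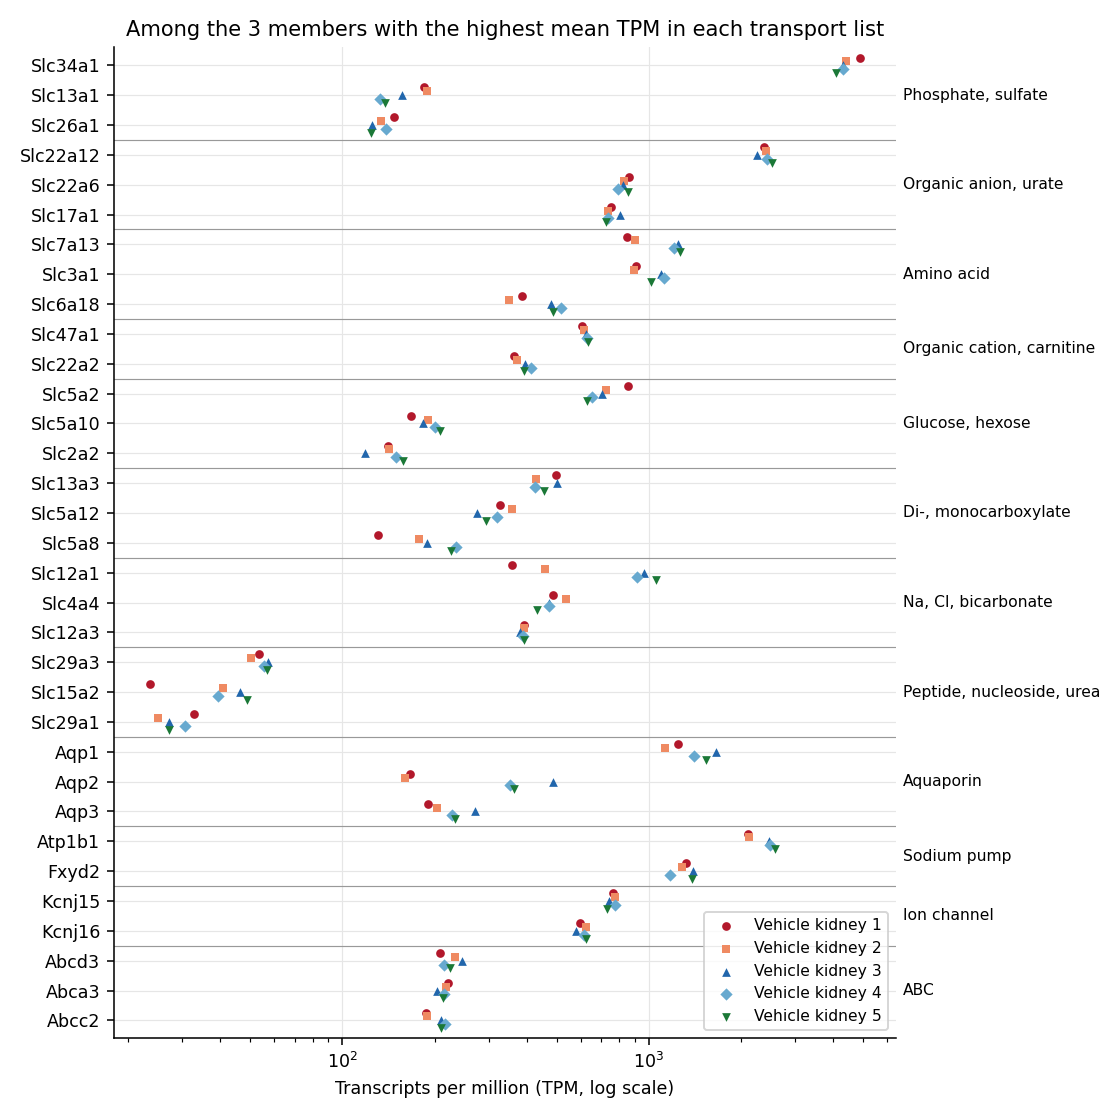
TPM on a log axis of genes among the 3 members with the highest mean TPM in each transport list, with 1 point per vehicle kidney. Slc34a1, at 4069 to 4883 TPM, is the highest carrier, while Slc12a1 and Aqp2 show the widest scatter between kidneys among the genes plotted above 100 TPM.

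Carrier genes differed from the cisplatin state in both directions. Of 319 SLC genes tested, 86 (27.0%) were higher in vehicle than in cisplatin-treated kidneys and 44 (13.8%) were lower, beside 12.1% and 12.1% of all genes, and the median log2 difference was 0.36 beside 0.01 over all genes tested. Organic anion and urate carriers were higher for 11 of 16, with Slco1a1 at a log2 difference of 6.23, and lower for 1, the prostaglandin carrier Slco2a1 (-1.99). Among phosphate and sulfate carriers Slc34a1 (5.04), Slc34a3 (5.91) and the sulfate carrier Slc26a1 (4.06) were higher and Slc34a2 (-3.51) and Slc20a1 (-1.21) lower. Of 17 tubular ion channels 8 were higher and 0 lower, of 17 sodium, chloride and bicarbonate carriers 8 and 0, of 21 amino acid carriers 9 and 1, of 12 sugar carriers 6 and 3, and of 10 di- and monocarboxylate carriers 4 and 1. Organic cation carriers were higher for 4 and lower for 3 of 12, and peptide, nucleoside and urea carriers for 4 and 1 of 9 tested. Of 11 sodium pump genes tested 1 was higher, Fxyd2 (1.16), and 1 lower, Fxyd5 (-1.28), of 9 aquaporin genes 0 were higher and 2 lower, and of 42 ABC genes 6 were higher and 5 lower. Without kidneys 1 and 2 the calls over all genes numbered 4328 in place of 4137. Against KW6002-treated kidneys 0 of 17131 genes (0%) were called by edgeR. At an unadjusted p below 0.05 there were 1930, and DESeq2 called 4 genes, all lower in vehicle (Akr1b3, Sgk1, Cry1 and Mchr1, named here after their values were seen). SLC genes held 5.04% ± 0.0645 (SD, n = 6) of counts there. Adora2a, the adenosine receptor that KW6002 blocks, was at 3.65, 2.46, 3.56, 4.66 and 3.23 CPM in the vehicle kidneys.

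Most genes differed little between the 5 vehicle kidneys. Over the 11113 genes with a mean of at least 5 CPM the median excess CV was 6.93% and the 95th percentile 26%, and 399 genes (3.59%) reached 30%. Without both kidneys 1 and 2, which held the most fat and red cell marker counts, 161 genes did, over 3 kidneys. The median was 7.02% for genes at 1000 CPM or more and 11.1% for genes from 5 to 10 CPM. Cat and Cdh16 were among the steadiest of the abundant genes. Cat, which breaks down peroxide, was at 1225, 1253, 1253, 1231 and 1223 CPM, and Cdh16, the kidney cadherin, at 1198, 1139.7, 1193, 1149.9 and 1144 CPM, with excess CVs of 1.18% and 1.72%. Of the 255 SLC genes at this level 17 reached 30%, among them Slc1a3, Slc36a2, Slc4a11 and Slc7a12. The values that follow for the widest spreads are a description, because the spread itself chose the genes.

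**Figure D4:**
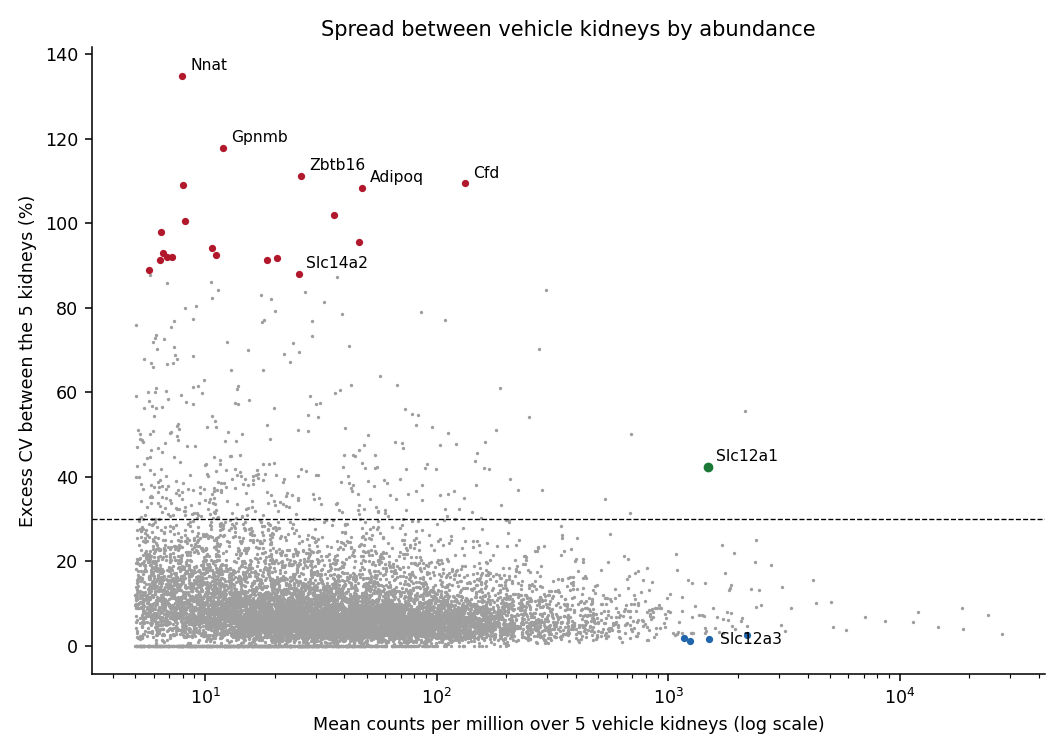
Excess CV between the 5 vehicle kidneys (%) against mean CPM on a log axis, with 1 point per gene at 5 CPM or more. Red points are the 20 genes with the highest excess CV, led by Nnat at 135%, blue points the 4 steadiest genes at 1000 CPM or more, the green point Slc12a1, and the dashed line the 30% threshold.

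Genes known from fat tissue and from macrophages were among the 20 with the widest spread. Adipoq, the fat hormone adiponectin, was at 67.5, 130.0, 17.6, 16.7 and 6.84 CPM in kidneys 1 to 5 (excess CV 108%), Cfd, the fat-derived complement factor adipsin, at 190.0, 364, 51.0, 40.4 and 19.6 CPM (109%), and Cidec, a lipid droplet protein, at 66.0, 115, 25.3, 16.4 and 8.89 CPM (95.7%). Retn, Adrb3 and Lgals12 of the same tissue showed the same order, with kidney 2 highest, kidney 1 next and kidney 5 lowest. Nnat, neuronatin, had the highest excess CV of all, 135%, at 15.6, 23.2, 0.473, 0.391 and 0.241 CPM. Fcna, a ficolin of macrophages, was at 16.1, 19.2, 1.01, 2.08 and 1.93 CPM, and the scavenger receptor Cd163 at 10.1, 17.7, 1.64, 3.36 and 3.38 CPM, also highest in kidneys 1 and 2. Of the 20 genes kidney 2 was highest for 15, kidney 1 for 3, and kidneys 3 and 4 for 1 each, whereas over all genes at 5 CPM or more kidney 2 was highest for 19.7%. All 6 fat markers and all 5 red cell markers at 5 CPM or more were highest in kidney 2.

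A pair of the 20 ran against that order. Slc14a2, the urea transporter of the inner medulla and thin limb, was at 0.613, 5.36, 55.1, 30.7 and 35.2 CPM, so that kidney 3 held the most and kidney 1 the least. The thin limb marker Bst1 (3.16, 6.54, 16.3, 13.5 and 16 CPM) had the same order of kidneys. Zbtb16, a transcription factor that glucocorticoids induce, was at 2.08, 4.80, 9.55, 64.9 and 48.5 CPM, with kidneys 4 and 5, the mice numbered in the 500s, above the other 3. In the 6 KW6002-treated kidneys it was at 2.57, 14.9, 28.5, 66.8, 73.5 and 17.7 CPM, of which the first 3 mice carry numbers in the 300s.

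Wide spread was not limited to rare messages. Of 571 genes at 250 CPM or more, 9 had an excess CV of at least 30%, a list drawn up after the values were seen. Scd1, the desaturase that makes oleate, was at 2292, 4121, 1339, 1842 and 1132 CPM, and Fasn, fatty acid synthase, at 772, 1216, 415, 734 and 333 CPM, both highest in kidney 2 and lowest in kidney 5. Car3 (411, 681, 179.5, 124 and 83.7 CPM) and Fabp4 (321, 595, 163, 212 and 95.9 CPM), which fat expresses strongly, had the same high and low kidneys. Slc5a3, the inositol carrier that responds to medullary salt, was at 109, 152, 209, 399.6 and 386 CPM and Txnip, a glucose-induced redox regulator, at 462, 441, 325, 744 and 707 CPM, and for both kidneys 4 and 5 were highest. The others were Slc12a1, Nudt19 and Gramd1b, with excess CVs of 42.3%, 31.4% and 36.9%. In the KW6002-treated kidneys the excess CV was 47.1% for Scd1, 51.1% for Fasn, 64.3% for Car3, 45.1% for Fabp4 and 33.9% for Slc5a3. It was below 30% for the other 4 genes, at 25.2% for Txnip, 22.6% for Nudt19, 18.6% for Gramd1b and 9.47% for Slc12a1.

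**Figure D5:**
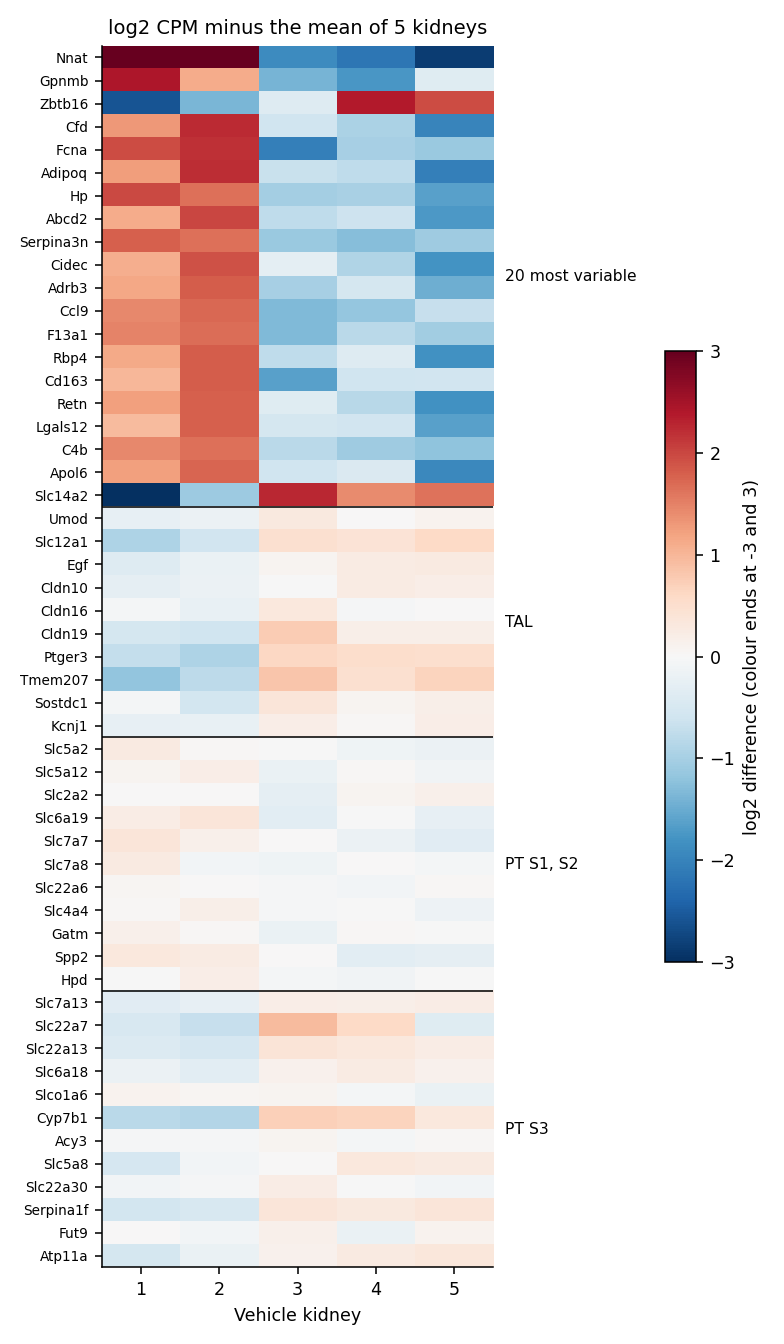
Colour gives log2 CPM minus the mean of the 5 vehicle kidneys, red above and blue below, with the colours ending at -3 and 3, for the 20 genes with the highest excess CV and 3 lists of segment markers. Kidneys 1 and 2 are red for most of the 20 genes and blue for thick ascending limb markers such as Slc12a1, at 715 and 919 CPM against 1820 to 2083 in the others.

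The same genes were compared in kidneys that the choice did not use. Of the 399 genes, 357 were at 5 CPM or more in KW6002-treated kidneys, and 147 of these (41.2%) had an excess CV of at least 30% there, beside 2.25% of all 10993 genes at 5 CPM in both groups. Across these genes, which are not independent replicates, the Spearman correlation of excess CV between the groups was 0.504, and the groups share each gene's abundance. The label number series was tested within the KW6002-treated kidneys, 3 mice in the 300s against 3 in the 500s. Of 16073 genes, 400 (2.49%) were higher and 394 (2.45%) lower in the 300s at an adjusted p below 0.05. Of the 399 genes variable in vehicle kidneys, 32 were higher and 31 lower, 15.8% together. Both directions together made 794 genes. Without KW6002 replicate 3 the number was 167, and without replicate 2, 4 or 5 it was 269, 256 and 251. Among the vehicle kidneys themselves, 3 against 2, 39 of 16422 genes (0.237%) passed.

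Core clock genes were among those that differed by number series. Of 17 clock genes, 3 were higher and 7 lower in the 300s of the KW6002-treated kidneys, beside 2.49% and 2.45% of all genes. Nr1d1, a repressor of the clock loop, was higher in the 500s there (log2 difference -2.45, standard error 0.20, adjusted p = 0.00155). In the vehicle kidneys Nr1d1 was at 72.2, 92.7, 47.4, 137 and 166 CPM, with kidneys 4 and 5 highest. Cry1, a clock repressor, was at 5.85, 3.06, 10.0, 3.36 and 2.89 CPM, highest in kidney 3. The labels used here give no hour of sampling. Ciart and Per1 are shown as the clock promoters with E-box matches that belong to genes differing by number series. In capitals are CACGTG, the E-box that the clock activators bind, and TTATGNAA, the D-box, in either strand, in the 250 bases before the RefSeq start (GRCm38.p6).
Ciart (chr3:95882229-95882478, minus strand): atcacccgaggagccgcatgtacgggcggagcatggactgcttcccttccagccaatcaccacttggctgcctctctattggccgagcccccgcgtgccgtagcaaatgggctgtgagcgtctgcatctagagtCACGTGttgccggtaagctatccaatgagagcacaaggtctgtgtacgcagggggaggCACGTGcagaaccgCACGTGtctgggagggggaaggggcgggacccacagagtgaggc
Per1 (chr11:69098699-69098948, plus strand): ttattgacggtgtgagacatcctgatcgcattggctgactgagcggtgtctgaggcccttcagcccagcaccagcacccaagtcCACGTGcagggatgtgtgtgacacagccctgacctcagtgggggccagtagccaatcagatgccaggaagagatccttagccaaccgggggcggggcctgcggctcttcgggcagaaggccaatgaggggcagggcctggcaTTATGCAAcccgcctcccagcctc
Ciart holds 3 E-boxes, starting 116, 58 and 44 bases before the start, and Per1 holds 1 E-box at 166 and 1 D-box at 24 bases before it. An E-box was in 6 of 20 promoters of the 15 clock genes matched (30%) and in 7.15% of all promoters, and a D-box in 10% and 3.38%. In the KW6002-treated kidneys Ciart differed by number series (log2 difference -3.06, standard error 0.16, adjusted p = 5.61e-04), as did Per1 (log2 difference -0.81, standard error 0.18, adjusted p = 0.0455), while in the vehicle kidneys Ciart was at 5.79, 7.06, 5.64, 7.56 and 8.41 CPM and Per1 at 30.6, 48.0, 62.8, 61.6 and 45.8 CPM.

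Genes that differ between the sexes in mouse kidney were present from both lists. The 7 genes known to be higher in males held 2.25% ± 0.162 (SD, n = 5) of counts, most of it Kap, and the 4 known to be higher in females held 0.0997% ± 0.0124. Some members of both lists spread widely. Cyp7b1 (47.7%) and Cyp4a12a (32.4%) had the highest excess CVs of the male-biased list, and Slc7a12, an amino acid carrier, at 22.2, 27.3, 28.0, 51.4 and 85.0 CPM, that of the female-biased list (61.7%). Cyp4a12a was at 59.7, 61.3, 60.2, 30.7 and 31.3 CPM, and 48.9% of its 50-base stretches occur at another locus. All 7 male-biased genes were higher in vehicle than in cisplatin-treated kidneys, beside 12.1% of all genes in each direction. The median log2 difference of the 7 was 2.86. Of the 4 female-biased genes Slc7a12 (4.67) and Cyp2a4 (2.38) were higher in vehicle and Cyp4a14 (-2.36) was lower.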

How the data were processed

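The data were whole-number read counts per gene from polyA RNA of 22 mouse kidneys, 1 library per mouse (TruSeq stranded mRNA, single reads of 50 bases). The authors made these deposited counts, without normalization, by aligning reads with STAR to mm10 and counting unique reads per gene with HTSeq 0.6.1p1 in union mode, after bcl2fastq 2.17.1.14, as the submitters' processing notes and methods give them. The strand setting of the counting is not given in the sources used here, so reads of a gene and of an overlapping or antisense partner cannot be told apart. The 66 unnamed empty columns were not used. The 34 genes without a symbol held 0.00476% of vehicle counts.

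CPM was computed on all gene counts, and TPM with union exon lengths of GENCODE M21. Wilson intervals and the floor of 3 counts (0.0904 to 0.113 CPM) cover counting error only. Excess CV is the square root of the squared coefficient of variation minus the reciprocal of the mean count, on CPM normalized by the trimmed mean of M-values (TMM), for genes at a mean of 5 CPM or more. Treatments were compared with the quasi-likelihood test of edgeR 4.0.16 (R 4.3.3) in 1 fit over all libraries, filtered by filterByExpr and adjusted by Benjamini-Hochberg, and called at an adjusted p below 0.01 and a log2 difference beyond 1, with DESeq2 1.42.0 as an alternative. Label number series were compared within a treatment at an adjusted p below 0.05. The edgeR step was tested on simulated data for 5 against 5 libraries of vehicle and cisplatin depth, where it recovered 200 of 200 changed genes among 16200 with 0 others. The simulation gave every gene the same spread. Its changes were of equal size, beyond the threshold of a call, and lay in well-counted genes only. It checks that the step runs, and does not measure its sensitivity or error rate in these data. Sharing between loci is the share of 50-base windows of a gene's transcripts found at another gene.

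The genes named are the 25 with the highest mean CPM and the mitochondrial messages, the 10 with the highest mean TPM, the 3 highest and all undetected members of each cell type list, the 10 highest SLC genes and the 3 highest of each transport list by TPM, the 20 with the highest excess CV, the 3 most variable of each function list, the injury and sex-biased lists, and Havcr1, Lcn2 and Adora2a. Some of these genes are not reported here. Further list members are named for their role, after their values were seen. Members and lists were chosen with earlier results of these data known. Other thresholds, scales, normalizations, tools, a replicate block and leaving out libraries were tried as alternatives.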

Additional observations from a re-analysis of the deposited data

Results flagged for a closer look

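Among the 5 vehicle kidneys 1 kidney stood apart from the others in 7 of 220 quantities checked (48 list shares and 172 named genes), by Dixon's ratio of the gap at one end to the whole range, with a critical value of 0.71. This was 3.18%, and chance alone marks about 1 quantity in 20. The share of counts on endothelial markers was lowest in kidney 2, at 0.0747% against 0.0832 to 0.0867% in the others (ratio 0.711), and within that list Eng, a receptor of the TGF-beta family, was at 80.1 CPM in kidney 2 against 106 to 116 CPM (ratio 0.732). Kidney 2 was the lowest for 8 of 11 endothelial markers, beside 21.1% of all genes at 5 CPM or more. The type I interferon response list was highest in kidney 3, at 0.0153% against 0.0114 to 0.0123% (ratio 0.774). The ABC transporter list was lowest in kidney 1, at 0.355% against 0.368 to 0.374% (ratio 0.719). The ribosomal protein genes Rpl39, at 5.97 CPM against 11.3 to 13 CPM (ratio 0.762), and Rpl7a, at 16.6 CPM against 26.9 to 30.9 CPM (ratio 0.716), were lowest in kidney 5. Chga, a marker of the adrenal medulla, was highest in kidney 1 (ratio 0.859), where it had 7 counts, or 0.214 CPM.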

How the results depend on the processing

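The 100 most abundant genes held 20.8% among nuclear genes and 48.2% in TPM. In TPM and, after it, without its most abundant member, the share was 0.477 and 0.488% for S1 and S2 markers, 0.533 and 0.480% for S3, 15.9 and 6.95% for the general proximal tubule list, 0.637 and 0.443% for the thick ascending limb, 0.0721 and 0.0327% for the distal convoluted tubule, 0.490 and 0.0666% for the connecting tubule, 0.0871 and 0.0451% for principal cells and 0.0756 and 0.0519% for intercalated cells, and 0.0106 and 0.00192% for the thin limb.

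Leaving out 1 vehicle kidney at a time gave 29.5 to 29.7% for the 100 most abundant genes and 9.28 to 9.37% for mitochondrial messages. For the segment lists, in the order used above, the ranges were 0.652 to 0.680%, 0.632 to 0.678%, 9.31 to 9.45%, 0.828 to 0.921%, 0.181 to 0.184%, 0.174 to 0.187%, 0.0556 to 0.0638% and 0.0632 to 0.0653%, and 0.00995 to 0.0125% for the thin limb. SLC genes at 1 CPM numbered 291 to 293 and genes with an excess CV of at least 30% numbered 356 to 458. The latter were 978 at a minimum of 1 CPM, 151 at a minimum of 20 CPM and 161 without both kidneys 1 and 2, an alternative chosen after seeing the data.

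Against KW6002, DESeq2 called 4 genes, libraries numbered in the 500s alone gave 1 (Per1), and leaving out 1 vehicle library gave 0 to 2, with Fabp7 and Cry1 called without Vehicle replicate 3 and Lrrc39 without Vehicle replicate 5. Leaving out 1 library gave 4074 to 4308 genes against cisplatin. With the replicate block the numbers were 0 and 4105. Deviations of same-numbered vehicle and KW6002 libraries correlated at 0.405, -0.153, 0.132, 0.155 and 0.194, and the vehicle libraries correlated best with their own number only for 1 and 5, so the numbers were not taken as pairs. Same-numbered libraries of these groups also share the label number series. The label number series gave 1241 genes with DESeq2, 1400 with no filter on low counts, and 167 to 843 on leaving out 1 library, with 269, 167, 256 and 251 without KW6002 replicates 2, 3, 4 and 5. The causes were not tested. In all, 112 of the alternative values stayed close to the reported value, within 1 SD for a share of counts and within 1.5 times for a number of genes, and 32 did not. Depth limits genes below the floor of 3 counts, for which absence cannot be told from a level under 0.0904 to 0.113 CPM.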

Other observations

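Gene groups outside the nephron lists also varied between the vehicle kidneys. The 7 major histocompatibility class II genes, which present antigen, were each highest in kidney 1, and their share of counts was 0.0456, 0.0370, 0.0377, 0.0290 and 0.0261% in kidneys 1 to 5. Cd74, the invariant chain, was at 174, 135, 134, 104 and 95.1 CPM. Of the 7 genes 5 were higher in vehicle than in cisplatin-treated kidneys and 0 were lower, beside 12.1% of all genes in each direction. Ciita, the activator of this gene group, had a log2 difference of 2.78.

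Heat shock genes held 0.0447, 0.0445, 0.0522, 0.0682 and 0.0764% of counts, highest in kidneys 4 and 5, which were lowest for the class II genes. Hspa8, a constitutive chaperone, was at 274, 276, 320, 411 and 467 CPM, and the stress-induced Hspa1b was at 3.80, 4.0, 9.86, 16.3 and 14.4 CPM, of whose 50-base stretches 62.3% occur at another locus. Genes of cholesterol synthesis were also highest in kidneys 4 and 5 by summed share, at 0.212 and 0.214% against 0.176 to 0.188% in the others. Gene by gene, kidney 3 was highest for 7 of the 17 at 5 CPM or more, kidney 4 for 5 and kidney 5 for 3. Of 19 genes 7 were higher in vehicle than in cisplatin-treated kidneys and 0 lower, beside 12.1% of all genes in each direction. The sterol demethylase Cyp51 led them (log2 difference 3.33). Immediate early genes, which respond to stimulation of the cell, were lower in vehicle than in cisplatin-treated kidneys for 14 of 15 genes. Btg2 (log2 difference -5.01) and Egr1 (log2 difference -4.87) were the lowest. Of 11 interferon response genes 0 were higher and 5 lower. For both lists the share over all genes was 12.1% in each direction.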
